A study of Mus musculus with 68 samples.

Results

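The genes described here encode the proteins of the mitochondrial ribosome. They were taken as every gene whose symbol begins with Mrpl or Mrps followed by a number, which gave 80 of the 36172 genes in the table. Of these, 76 are protein-coding and had a count in at least 1 cell. The other 4 are pseudogenes (Mrpl23-ps1, Mrpl48-ps, Mrps36-ps1 and Mrps36-ps2) with no count in any cell. The values come from Patch-seq, in which the contents of a single neuron are drawn into the recording pipette and its RNA is sequenced. The neurons were dopamine (DA) neurons of the mouse ventral tegmental area, a midbrain region that encodes reward and motivation. The comparison asks whether their transcripts differ between a mouse model of Alzheimer's disease and control mice.

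There were 33 cells from 3xTg mice and 35 cells from wild type (WT) mice, all aged 12 months and of both sexes. The 3xTg mice are homozygous for 3 mutant human transgenes, which encode APP, tau and presenilin 1. The WT mice were bred as a line of their own, kept beside the 3xTg line and of the same mixed strain (C57BL/6;129×1/SvJ;129S1/Sv, placed in B6;129), so genotype and line cannot be told apart. No label names the mouse a cell came from, so each genotype stands here as 1 sample. For that reason no test was made between genotypes, and every SD is a spread over cells, not an error of the genotype. The cell numbers in the labels fall into runs: 21 3xTg cells numbered 24 to 55 and 12 numbered 76 to 92, and 17 WT cells numbered 1 to 22, 15 numbered 57 to 74 and 3 numbered 94 to 96. The first runs and the second runs of the genotypes were compared separately beside the whole. What a run stands for is not given by the labels, and each run holds cells of 1 genotype.

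Total counts ranged from 492505 to 1678620 per cell, with medians of 1194460 in 3xTg cells and 982390 in WT cells. The authors kept cells positive for Th, Slc6a3 and Slc18a2 and negative for Aldh1l1, P2ry12, Pvalb and Tmem119. A count of the first 3 in all 68 cells was thus set by that choice. Of the other DA neuron markers, Ddc was counted in 33 3xTg and 35 WT cells and Nr4a2 in 30 and 34. En1 was counted in 33 and 32, Foxa2 in 13 and 6 and Pitx3 in 9 and 5. Counts of the 8 DA neuron markers together ranged from 6894 to 34222 CPM in 3xTg cells and from 4677 to 26061 CPM in WT cells. CPM is a count divided by the cell's total and scaled so that each cell sums to 1e+06. Genes of other cell types were counted too. Every cell had a count of an oligodendrocyte marker, from 5.66 CPM in 3xTg and 7.94 CPM in WT cells upward, and of a GABA neuron marker, from 1.10 and 3.14 CPM upward. Gad2 was counted in all 68 cells, and Mbp in 32 of 33 and 35 of 35. The 8 microglia markers together ranged from 0 to 5741 CPM in 3xTg cells and from 0 to 3854 CPM in WT cells. Tmem119, by which the authors excluded cells, was counted in 0 3xTg cells and 1 WT cell. Cx3cr1 was counted in 29 3xTg and 31 WT cells, C1qb in 10 and 13, Aif1 in 10 and 12 and C1qc in 11 and 5. C1qa was counted in 8 and 9, P2ry12 in 4 and 3 and Csf1r in 2 and 7. Summed over cells the 8 took 167.8 CPM in 3xTg and 517.4 CPM in WT. The median cell was at 36.6 and 50.04 CPM, and the means of 237.8 and 523.0 CPM lay well above these. The 5 astrocyte markers reached 272.4 CPM in 3xTg cells and 2410 CPM in WT cells, and summed to 14.0006 and 163.6 CPM. Aldh1l1, also used by the authors to exclude cells, was at 0 in all of them. The 5 oligodendrocyte markers reached 583.2 and 2540 CPM (94.1 and 292.01 CPM summed), the 4 endothelial markers 1.36 and 0.881 CPM, the 4 GABA neuron markers 167.7 and 267.2 CPM and the 2 glutamate neuron markers 118.6 and 760.6 CPM, in 3xTg and WT cells. In all, 10 cells, 5 of each genotype, had a count of at least 1 of the excluding markers, which are Aldh1l1, P2ry12, Pvalb and Tmem119. The part these RNAs play in the values below was not tested, and the median, pooled and summed values without those 10 cells are given beside them.

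Mitochondria keep a small genome whose messages are read by a ribosome of their own. Its RNA is encoded in the mitochondrion, but its proteins are encoded in the nucleus, made in the cytosol and imported. The large subunit (39S) forms peptide bonds and the small subunit (28S) holds and decodes the message. The ribosome makes core subunits of the respiratory chain and of ATP synthase, on which pacemaking neurons depend. Part of its proteins have a counterpart in the bacterial ribosome and others are found in mitochondria alone. Of the 76 genes, 49 encode large subunit proteins, among them Mrps18a and Mrps30, which are named for the small subunit. A further 26 encode small subunit proteins. Mrps36, despite its name, encodes a protein of the alpha-ketoglutarate dehydrogenase complex of the citric acid cycle. As sorted here, 46 of the products have a bacterial counterpart and 27 are found in mitochondria alone. Mrps18a, Mrps30 and Mrps36 were put in neither group. Mitochondrially encoded genes were not analysed here, so the RNA of this ribosome is not described.

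The 76 genes lie on 17 chromosomes, and a group of them lies close to another gene's start. With head-to-head meaning a protein-coding gene on the opposite strand that starts within 1000 bases upstream, 23 of the 76 (30.3%) had such a neighbor. Among all protein-coding genes past the filter used below, 783 of 6452 (12.1%) did. Several neighbors also serve mitochondria. Mrpl43 faces Peo1, which encodes the helicase that unwinds mitochondrial DNA for its copying. Mrps12 faces Sars2, the mitochondrial seryl-tRNA synthetase, and Mrpl47 faces Ndufb5, a complex I subunit. A single pair faces each other within the group. Mrpl46 of the large subunit and Mrps11 of the small subunit start 42 bases apart on chromosome 7, so 1 stretch of 41 bases lies upstream of both.

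Promoter sequences, 250 bases before to 50 bases after a start, were found in RefSeq (build GRCm38.p6, the same assembly as mm10) for 67 of the 76 genes. Mrpl13, Mrpl15, Mrpl19, Mrpl38, Mrpl4, Mrpl54, Mrps28, Mrps34 and Mrps35 had no entry. Motifs were searched on both strands. The core of the NRF1 site, GCATGCGC, was in 8 of 67 (11.9%), against 6.23% of the 5201 promoters of genes past the filter and 3.78% of all 16824 protein-coding promoters. NRF1 is known as an activator of nuclear genes for mitochondria. The ETS core, CCGGAAG, which GABP binds, was in 23 of 67 (34.3%), against 19.7% and 12.3%. The YY1 core, AAGATGGC, was in 12 of 67 (17.9%), against 5.52% and 3.29%. TATAAA was in 4 of 67 (5.97%), against 7.08% and 13.2%. These are shares of windows that hold the letters and say nothing of binding in these cells. The ETS core ends in the 3 letters that begin the YY1 core, so these 2 can overlap. Both were in 3 of the 67 promoters, overlapping in 0 of them, and in 64 of the 5201, overlapping in 1.

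The sequences printed here lie upstream of members that the results below turn on, cut where a head-to-head neighbor begins, with the matched cores in capitals. Mrps11 and Mrpl46 share the first. Mrpl27 is shown because it was among the most abundant and the window before Eme1, between the RefSeq starts, is 47 bases long. Mrpl10 and Mrpl33 hold the NRF1 core, Mrpl51, counted in every cell, holds the ETS core, and Mrps5, with the largest genotype difference, holds none of the 4 upstream. Mrps11 lies at chr7:78783090-78783130 (+), Mrpl27 at chr11:94653744-94653790 (+), Mrpl10 at chr11:97041370-97041581 (+), Mrpl33 at chr5:31613701-31613950 (+), Mrpl51 at chr6:125191950-125192199 (+) and Mrps5 at chr2:127587176-127587425 (+), each 5′ to 3′ toward its gene.
Mrps11: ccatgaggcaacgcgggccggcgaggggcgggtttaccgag
Mrpl27: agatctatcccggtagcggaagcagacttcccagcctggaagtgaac
Mrpl10: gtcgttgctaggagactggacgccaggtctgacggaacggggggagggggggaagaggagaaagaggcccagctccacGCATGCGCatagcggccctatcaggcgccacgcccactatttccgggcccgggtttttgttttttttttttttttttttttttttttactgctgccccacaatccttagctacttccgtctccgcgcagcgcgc
Mrpl33: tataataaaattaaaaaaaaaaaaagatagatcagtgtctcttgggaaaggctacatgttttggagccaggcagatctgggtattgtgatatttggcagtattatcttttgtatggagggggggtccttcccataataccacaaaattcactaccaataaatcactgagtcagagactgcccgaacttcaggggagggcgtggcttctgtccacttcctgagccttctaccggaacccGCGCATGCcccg
Mrpl51: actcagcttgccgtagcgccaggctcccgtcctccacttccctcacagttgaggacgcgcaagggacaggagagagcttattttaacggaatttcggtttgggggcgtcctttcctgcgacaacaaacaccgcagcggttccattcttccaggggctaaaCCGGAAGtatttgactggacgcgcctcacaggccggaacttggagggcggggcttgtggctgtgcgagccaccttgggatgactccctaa
Mrps5: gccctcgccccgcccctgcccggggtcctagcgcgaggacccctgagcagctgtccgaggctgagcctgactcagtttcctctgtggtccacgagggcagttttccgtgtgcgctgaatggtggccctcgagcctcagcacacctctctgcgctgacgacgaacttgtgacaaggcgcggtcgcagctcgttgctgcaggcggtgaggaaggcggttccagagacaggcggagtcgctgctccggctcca

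The levels of these genes were set beside each other only per length, as mean CPM over the 68 cells per kilobase of coding sequence (coding lengths from GENCODE vM21). Of the 76, 72 passed a filter blind to genotype and 4 (Mrpl16, Mrpl44, Mrpl47 and Mrps35) did not. The filter asked that 34 or more of the 68 cells reach a normalized count of 1, the count divided by a size factor for the cell. The median of the 72 was 131.6 CPM per kilobase, 135.2 for the 46 of the large subunit and 129.1 for the 25 of the small subunit. Mrps33 was highest at 608.0 CPM per kilobase, followed by Mrpl41 at 571.7, Mrps14 at 394.1, Mrpl42 at 338.0, Mrpl27 at 316.3 and Mrpl33 at 305.5. Mrps33, Mrpl41 and Mrpl42 are found in mitochondria alone, whereas Mrps14, Mrpl27 and Mrpl33 have bacterial counterparts. The lowest were Mrps5 at 25.4 CPM per kilobase, Mrps31 at 33.7, Mrpl3 at 33.9, Mrps9 at 35.7, Mrps22 at 39.5 and Mrps27 at 44.8. The SD over WT cells of log2(normalized count + 1) was 2.96 for Mrps33 and 2.67 for Mrpl41, so these neighbors in the order did not differ beyond the spread of the cells. With the length of the whole transcript in place of the coding part, 4 of the 6 highest and 2 of the 6 lowest stayed in their 6.

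Most members were missing from part of the neurons. A member had a count in 31 to 68 cells, with a median of 52. Mrpl35 and Mrpl51 were counted in all 68, which is 2 of the 72 past the filter, against 11.4% of all 6916 genes past it. Mrpl35, the counterpart of bacterial L35, ranged from 0.878 to 324.1 normalized counts in 3xTg cells (median 96.1) and from 17.3 to 609.9 in WT cells (median 87.3). Mrpl51 ranged from 6.34 to 313.0 in 3xTg cells (median 94.6) and from 2.02 to 352.5 in WT cells (median 83.6). The genotypes overlapped in both. For Mrpl35 the lowest cells were 3xTg and the highest WT, whereas for Mrpl51 the ranges nearly coincided. At the other end, Mrpl44 and Mrpl47 were counted in 31 cells each and Mrpl16 in 32. For 64 of the 72 the lowest cell was at 0 in both genotypes, a count not set against all genes.

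The number of Mrp genes counted in a cell followed the number of all other genes counted in it. Between 22 and 76 of the 76 were counted per cell. In 3xTg cells the number ran from 34 to 76 with a median of 68, and in WT cells from 22 to 76 with a median of 55. Over the 68 cells it rose with the number of other genes counted (Pearson r = 0.87, Spearman rho = 0.85), as a description, since both come from the same library and depth. Within genotypes r was 0.85 over 33 3xTg cells and 0.87 over 35 WT cells. The amount of Mrp RNA did not show that relation: pooled Mrp CPM on the log2 scale against other genes counted gave r = -0.12 and rho = -0.09 over the 68 cells.

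**Figure D1:**
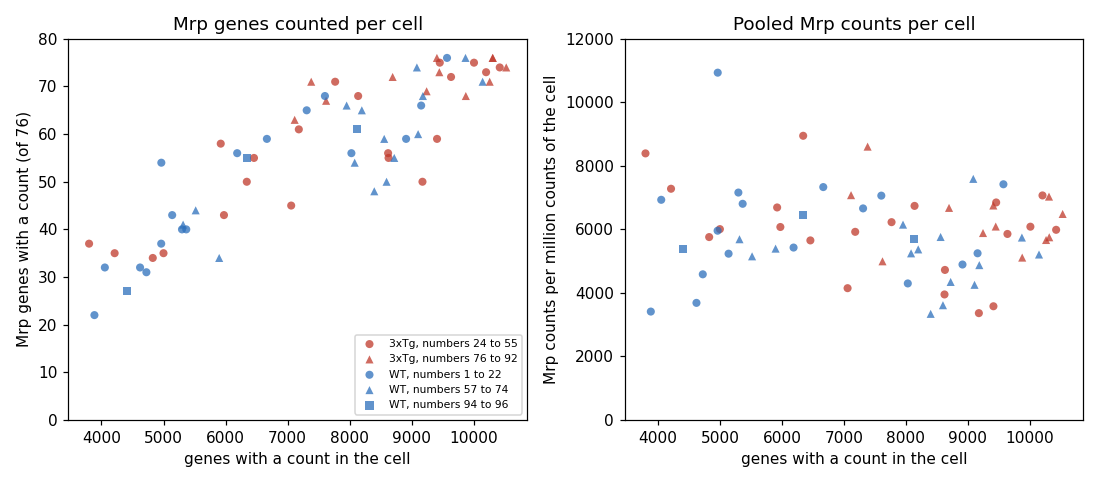
Each point is 1 cell. The horizontal axes give the genes with a count, and the vertical axes give the Mrp genes with a count (left, of 76) and the pooled Mrp CPM of the cell (right). Colors mark genotype and shapes mark runs of label numbers. On the left the points climb together from 22 to 76 Mrp genes, and the 12 3xTg cells numbered 76 to 92 all sit at 63 or more. On the right no slope is seen, with cells between 3340 and 10936 CPM.

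Together the Mrp genes took 3362 to 8948 CPM in 3xTg cells (median 6075, mean 6104 ± 1289 SD, n = 33 cells) and 3340 to 10936 CPM in WT cells (median 5394, mean 5666 ± 1479 SD, n = 35 cells). The ranges overlapped almost fully. Summed over cells, there were 226994 Mrp counts in 3xTg cells, or 6183 CPM (95% Poisson interval 6158 to 6208), and 198609 in WT cells, or 5838 CPM (5812 to 5863). The log2 ratio was 0.08, and 0.06 without the 10 cells that held an excluding marker. These intervals cover counting error alone, since reads without molecular identifiers are not independent molecules. Taken by run pair it was -0.04 for the first and 0.25 for the second, so its sign differed.

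The subunits were also summed apart. Large subunit genes took 4131 CPM of the summed counts in 3xTg and 3839 CPM in WT, a log2 ratio of 0.11 (0.01 and 0.23 in the first and second run pairs). Small subunit genes took 1986 and 1953 CPM, a log2 ratio of 0.02 (-0.16 and 0.26), so the sign turned between run pairs for the small subunit. Per cell, the large subunit held 38.5% to 83.8% of the Mrp counts in WT cells (median 67.02%) and 61.4% to 80.5% in 3xTg cells (median 66.8%). Large and small subunit log2 CPM were related across the 33 3xTg cells (r = 0.76, rho = 0.70) and less closely across the 35 WT cells (r = 0.34, rho = 0.32), a difference that was not tested.

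The genotype difference of single members was measured on log2(normalized count + 1), as the mean of the 3xTg cells less the mean of the WT cells. By this measure 69 of the 72 members were above 0, against 73.3% of all genes past the filter. Their median was 0.88, against 0.52 for all genes, so relative to the median gene it was 0.36. Members above the median gene were 52 of 72, where 50% is the share over all genes by construction. The differences ran from -0.55 to 2.33. A difference of at least 1 was seen in 30 of 72 members (28.4% of all genes) and of -1 or less in 0 of 72 (0.622% of all genes). Without the 10 cells with an excluding marker the median was 0.85, and 0.36 relative to the median gene, with 66 of 72 above 0 (72.3% of all genes). The 6 DA neuron markers past the filter had a median difference of 0.76, all 6 above 0, and summed over cells a log2 ratio of 0.35. Summed microglia, astrocyte and oligodendrocyte markers had log2 ratios of -1.62, -3.55 and -1.63. In WT, C1qb gave 10935 of 17604 microglia counts, Slc1a3 4428 of 5567 astrocyte counts and Mbp 8757 of 9935 oligodendrocyte counts. In the same order, the median cell was at 36.6, 0 and 35.2 CPM in 3xTg and 50.04, 0 and 43.6 CPM in WT. By the mean over cells, those past the filter differed by 0.31 (Cx3cr1), -0.79 (Mbp) and 0.15 (Mobp). The part of these markers in the members' differences was not tested.

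Summed counts gave a different picture from the mean over cells. The log2 ratio of CPM of summed counts was above 0 for 40 of 72 members, against 46.7% of all genes, with a median of 0.06 against -0.05 for all genes. With edgeR's TMM scaling 50 of 72 were above 0, against 53.6% of all genes. The 2 measures differed in sign for 29 of the 72 (28.4% of all genes). By the sums 33 of 72 members were higher in 3xTg cells with Poisson intervals that did not overlap (38.2% of all genes), and 22 were lower (42.4% of all genes). A log2 ratio of at least 1 was seen in 3 members (4.06% of all genes) and of -1 or less in 1 (5.62% of all genes). A mean of logs gives weight to cells at 0, and a sum to the cells with the most counts: the highest cell held a median of 10.0% of a member's 3xTg sum and 14.1% of its WT sum. A member had a count in a median of 84.8% of 3xTg cells and 68.6% of WT cells, with the larger share in 3xTg for 67 of the 76, in WT for 7 and equal for 2. Of the 72 past the filter the share was larger in 3xTg for 63 (68.4% of all genes) and in WT for 7 (20.2% of all genes). Among the cells with a count, the median difference was 0.33, above 0 for 48 of 72 (58.4% of all genes). Without the 10 cells with an excluding marker the median log2 ratio of sums was 0.03, with 40 of 72 above 0 (46.5% of all genes).

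**Figure D2:**
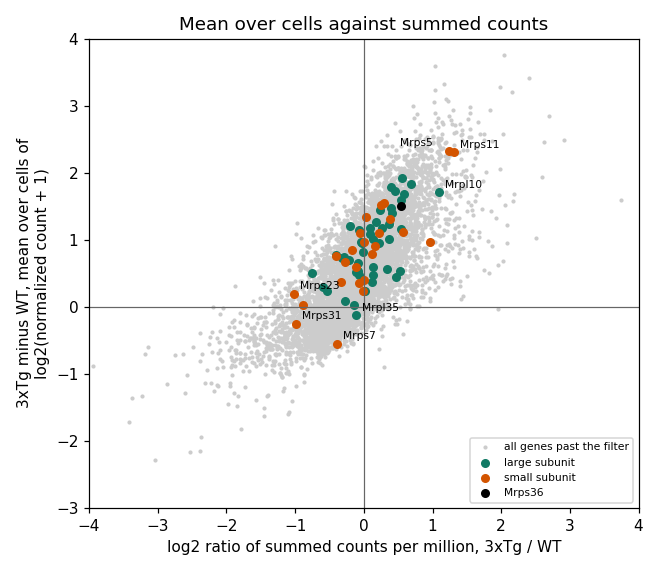
The horizontal axis is the log2 ratio of summed CPM, 3xTg over WT, and the vertical axis the difference of the log2 means. Green points are large subunit genes, orange points small subunit genes, the black point is Mrps36, and gray points are all 6916 genes past the filter. Nearly all Mrp genes lie above 0 on the vertical axis and on both sides of 0 on the horizontal one.

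The runs of label numbers gave unlike values. Between the first runs the median member differed by 0.44, near the 0.46 of all genes, with 35 of 72 above the median gene. Between the second runs it differed by 1.55, against 0.62 for all genes, with 63 of 72 above the median gene. Members above 0 were 51 of 72 in the first (71.9% of all genes), a share near that of all genes, and 71 of 72 in the second (67.8% of all genes). Between the run pairs 50 of 72 were above 0 in both (52% of all genes) and none was below 0 in both (0 of 72, 12.3% of all genes). The remaining 22 differed in sign, a count for which no share over all genes was taken. By the summed counts 33 of 72 were above 0 in the first run pair (57.3% of all genes) and 49 of 72 in the second (43.2% of all genes). The median of sums was -0.05 in the first, against 0.13 for all genes, and 0.25 in the second, against -0.15, so the members lay below all genes in the first and above them in the second. By the sums 25 of 72 were above 0 in both (25.5% of all genes) and 15 were below 0 in both (24.9% of all genes). At least 1 in both run pairs was reached by 19 of 72 members (15.1% of all genes).

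The number of members counted per cell set the runs apart in the same way. The 12 3xTg cells numbered 76 to 92 had 63 to 76 Mrp genes counted (median 71.5), against 34 to 76 (median 59) in the 15 WT cells numbered 57 to 74. In the first runs 3xTg cells had 34 to 75 (median 56) and WT cells 22 to 76 (median 54). The 3xTg second run was also the deepest, with a median of 1278480 counts against 989535 in the WT second run, and had a median of 9429 genes counted against 8559. With every cell thinned to 700471 counts, which left out 7 shallower cells, the medians of the second runs were 71.5 and 60 Mrp genes, and those of the whole genotypes 68 and 57. The part of cell quality in these values was not tested.

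**Figure D3:**
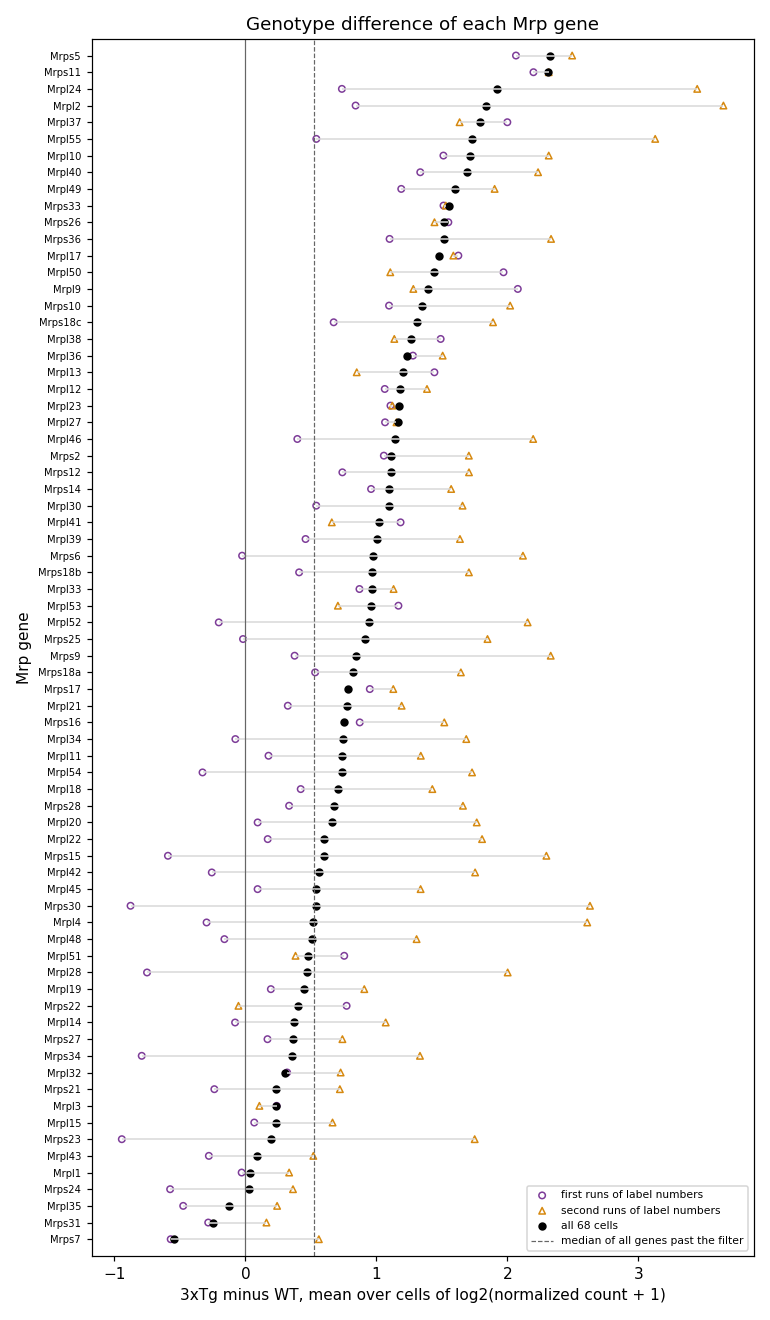
Each row is 1 of the 72 Mrp genes past the filter. The horizontal axis is the 3xTg mean less the WT mean on the scale of log2(normalized count + 1). Black points are all 68 cells, open circles the first runs and open triangles the second runs, and the dashed line at 0.52 is the median of all genes. The triangles lie to the right of the circles for most genes, and the black points run from -0.55 (Mrps7) to 2.33 (Mrps5).

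Mrps5 had the highest difference of the members. It encodes the counterpart of bacterial S5, a protein known for its part in accurate decoding, and lies on chromosome 2, 127587426 to 127603986 (+). It ranged from 0 to 162.4 normalized counts in 3xTg cells (median 29.98) and from 0 to 85.4 in WT cells (median 0). It was counted in 27 of 33 3xTg cells (95% Clopper-Pearson interval 64.5% to 93.02%) and 15 of 35 WT cells (26.3% to 60.6%), and was the 1 member of 72 whose intervals did not overlap with 3xTg higher (1.39% of all genes), a share equal to that of all genes. For 0 of 72 was 3xTg lower in that way (0.0145% of all genes). These intervals count cells, which are not replicates of a genotype. Its mean log2 value was 4.41 ± 2.42 in 3xTg and 2.09 ± 2.54 in WT (SD over cells), a difference of 2.33. The sums were 1753 counts (1672 to 1837) and 686 (636 to 739), a log2 ratio of CPM of 1.24, and 1.39 without the highest cell of each genotype. In the first run pair the difference was 2.07 and in the second 2.49.

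Mrps11, whose bacterial counterpart S11 lies in the platform of the small subunit, was next. It ranged from 0 to 213.3 normalized counts in 3xTg cells (median 54.97) and from 0 to 118.9 in WT cells (median 0). It was counted in 24 of 33 and 14 of 35 cells (intervals 54.5% to 86.7% and 23.9% to 57.9%). The difference was 2.31, and 2.20 and 2.32 in the first and second run pairs. The sums were 2270 counts (2178 to 2365) and 844 (788 to 903), the highest log2 ratio of the members at 1.32.

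Mrpl46, which faces Mrps11 across the 41 bases printed above, ranged from 0 to 307.5 normalized counts in 3xTg cells (median 58.3) and from 0 to 708.6 in WT cells (median 2.42). It was counted in 23 of 33 and 19 of 35 cells. Its difference was 1.14 by the mean over cells (0.40 and 2.20 by run pair), and its summed log2 ratio was -0.07. In 3xTg, 20 cells had a count of both genes, 3 of Mrpl46 alone, 4 of Mrps11 alone and 6 of neither. In WT, 10 cells had both, 9 Mrpl46 alone, 4 Mrps11 alone and 12 neither. Mrpl46 was named after its values were seen, for this pairing.

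Mrpl10 was the third member with a summed log2 ratio of at least 1. Its bacterial counterpart L10 forms the base of the stalk that binds translation factors. It ranged from 0 to 237.9 normalized counts in 3xTg cells (median 38.8) and from 0 to 233.4 in WT cells (median 3.89), ranges that overlapped throughout. It was counted in 27 of 33 and 24 of 35 cells, so the cells with a count differed less in number than those of Mrps5. Its difference was 1.71 (1.51 and 2.32 between the first and second runs) and its log2 ratio of sums 1.09, from 2520 counts (2423 to 2620) and 1099 (1035 to 1166).

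The other 4 of the 6 highest belong to the large subunit. Mrpl24 ranged from 0 to 321.3 normalized counts in 3xTg cells (median 57.6) and from 0 to 210.2 in WT cells (median 1.74), and differed by 1.92. Its gene body overlaps Rrnad1 on the opposite strand. Mrpl2, whose bacterial counterpart L2 lies near the peptidyl transferase center, ranged from 0 to 406.7 (median 65.98) and from 0 to 386.7 (median 0.598), and differed by 1.84. Both were larger between the second runs, at 3.45 and 3.65, against 0.74 and 0.84 between the first. Mrpl37, found in mitochondria alone, differed by 1.79 with medians of 79.2 and 4.04 normalized counts, and by 2.00 and 1.64 between the first and second runs. Mrpl55, the counterpart of bacterial L31, differed by 1.73 with medians of 87.6 and 17.7, and by 0.54 and 3.13.

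At the low end, 3 of the 72 were below 0 and 69 above it, where 73.3% of all genes were above 0. Mrps7, whose bacterial counterpart S7 helps form the head of the small subunit, ranged from 0 to 281.2 normalized counts in 3xTg cells (median 64.7) and from 0 to 578.1 in WT cells (median 81.8). It was counted in 24 of 33 and 30 of 35 cells. Its difference was -0.55 (-0.57 and 0.56 by run pair), and among cells with a count 0.33. Mrps31, found in mitochondria alone, ranged from 0 to 144.3 (median 14.2) and from 0 to 714.0 (median 2.42), and differed by -0.25 with a summed log2 ratio of -0.99. The highest WT cell alone gave 23.0% of its WT sum, and without the highest cell of each genotype the ratio was -0.83. Mrpl35, whose range is given above, differed by -0.12.

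Mrps24, Mrpl1 and Mrpl43 lay next, between 0.02 and 0.09. Mrps24, the counterpart of bacterial S3, had medians of 18.7 and 20.1 normalized counts, with a highest cell of 158.0 in 3xTg and 506.5 in WT, and a summed log2 ratio of -0.89. Mrpl1, whose bacterial counterpart forms the L1 stalk where spent tRNA leaves, had medians of 32.3 and 26.8. Mrpl43 had medians of 51.2 and 41.3 and was counted in 32 of 33 and 35 of 35 cells. Relative to the median gene these 3 were at -0.50, -0.49 and -0.44.

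**Figure D4:**
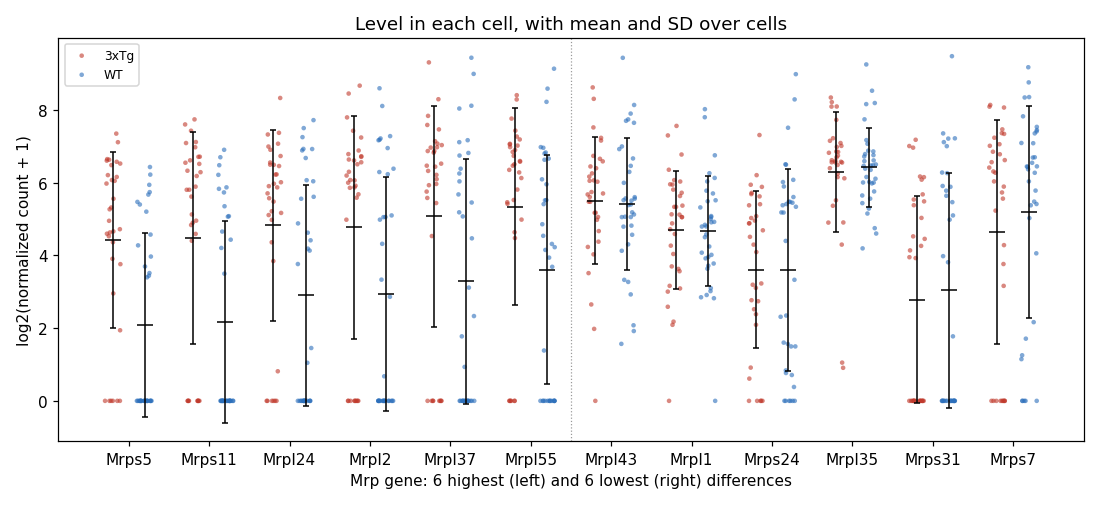
Points are single cells (red 3xTg, blue WT) on a scale of log2(normalized count + 1), with bars at the mean and SD over cells. The 6 members with the highest differences stand left of the dotted line and the 6 with the lowest right of it. On the left many WT cells lie at 0, as in Mrps11 with 14 of 35 WT cells counted, while the cells with a count overlap between genotypes for every gene shown.

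Mrps23 alone had a summed log2 ratio of -1 or less, at -1.02. It ranged from 0 to 244.2 normalized counts in 3xTg cells (median 41.2) and from 0 to 1202 in WT cells (median 27.9). The sums were 2009 counts (1922 to 2099) and 3786 (3666 to 3909). In WT, 1 cell gave 26.2% of the sum, and without the highest cell of each genotype the ratio was -0.75. By the mean over cells Mrps23 differed by 0.19, and by run pair by -0.94 and 1.75.

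Of the most abundant members, Mrps33 ranged from 18.03 to 635.1 normalized counts in 3xTg cells (median 216.3) and from 0 to 935.0 in WT cells (median 120.8), was counted in 33 of 33 and 30 of 35 cells, and differed by 1.56. Mrpl41 ranged from 0 to 871.2 (median 231.6) and from 0 to 751.2 (median 170.8) and differed by 1.02, and its gene body overlaps Wdr85 on the opposite strand. Their summed log2 ratios were 0.30 and 0.13. Mrps14 differed by 1.10, Mrpl27, the counterpart of a protein near the peptidyl transferase center, by 1.16, Mrpl33 by 0.97 and Mrpl42 by 0.56. Of the least abundant, Mrps9 differed by 0.85, Mrps22 by 0.40, Mrps27 by 0.36 and Mrpl3 by 0.24.

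Some members serve elsewhere than their names say. Mrps18a and Mrps30, which sit on the large subunit, differed by 0.83 and 0.54, with summed log2 ratios of -0.01 and -0.09. By run pair Mrps30 was at -0.88 and 2.63. Mrps36 of the dehydrogenase complex differed by 1.51 and had a summed log2 ratio of 0.53, from 2440 counts (2344 to 2539) and 1561 (1485 to 1640). By subunit, the median difference was 0.89 over 46 large subunit genes (45 above 0) and 0.85 over 25 small subunit genes (23 above 0), where 73.3% of all genes were above 0. By origin, it was 0.82 over 44 genes sorted as having a bacterial counterpart and 0.91 over 27 other genes of the ribosome. Mrps18a and Mrps30 were counted among the latter without their origin being sorted.

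Other genes of mitochondrial translation were set beside the members. All 6 further proteins of the mitochondrial ribosome passed the filter and were above 0, where 73.3% of all genes were. Their median was 1.09, from 0.46 for Gadd45gip1 to 1.98 for Ict1, a release factor built into the large subunit. Of 18 assembly factors 5 passed, with a median of 0.64, from 0.33 for Mtg1 to 1.84 for Rbfa. Of 12 translation factors 8 passed, with a median of 0.50, from -0.40 for Mtfmt, which makes the initiator formyl-methionyl-tRNA, to 2.02 for Tufm, the elongation factor that brings in tRNA. Of 17 mitochondrial tRNA synthetases 5 passed, with a median of -0.27 and a lowest value of -0.57 for Rars2, the arginyl-tRNA synthetase. Of 9 genes of mitochondrial transcription and RNA 5 passed, with a median of 0.27, from -0.37 for Peo1 to 0.71 for Lrpprc. By summed counts 46.7% of all genes past the filter were above 0. The median log2 ratio of sums was 0.10 for the other ribosomal proteins (4 of 6 above 0) and 0.36 for the assembly factors (4 of 5). It was -0.16 for the translation factors (3 of 8), -1.11 for the tRNA synthetases (1 of 5) and -0.30 for transcription and RNA (1 of 5). The sign of the median thus differed between the measures for translation factors and for transcription and RNA. In the first and second run pairs the medians by the mean over cells were 0.89 and 1.64 for the other ribosomal proteins, 0.44 and 1.44 for the assembly factors and 0.51 and 1.15 for the translation factors. The sign turned between run pairs for the tRNA synthetases (0.33 and -0.92) and for transcription and RNA (-0.17 and 0.88). For the assembly factors and tRNA synthetases most genes did not pass the filter, so their medians describe the more widely counted ones.

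Complex I subunits and cytosolic ribosomal proteins were compared as larger groups. For 37 complex I subunits, part of whose complex the mitochondrial ribosome makes, the median was 0.75 with 36 above 0 (73.3% of all genes), and the median summed log2 ratio 0.10. For 78 cytosolic ribosomal proteins the median was 0.45 with 72 of the 78 above 0, and the median summed log2 ratio 0.02. Between the second runs the medians were 1.12 and 0.78, against 1.55 for the Mrp genes, and between the first runs 0.43 and 0.05, against 0.44. The median SD over WT cells was 3.04 for Mrp genes, 2.46 for complex I and 2.22 for cytosolic ribosomal proteins. A Mrp gene had a count in a median of 76.5% of cells and a gene of either other group in 95.6%. Across the 68 cells, pooled Mrp log2 CPM was related to that of complex I (r = 0.79, rho = 0.76) more closely than to that of cytosolic ribosomal proteins (r = 0.42, rho = 0.37). These points share library and depth, and no difference between the groups was tested.

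**Figure D5:**
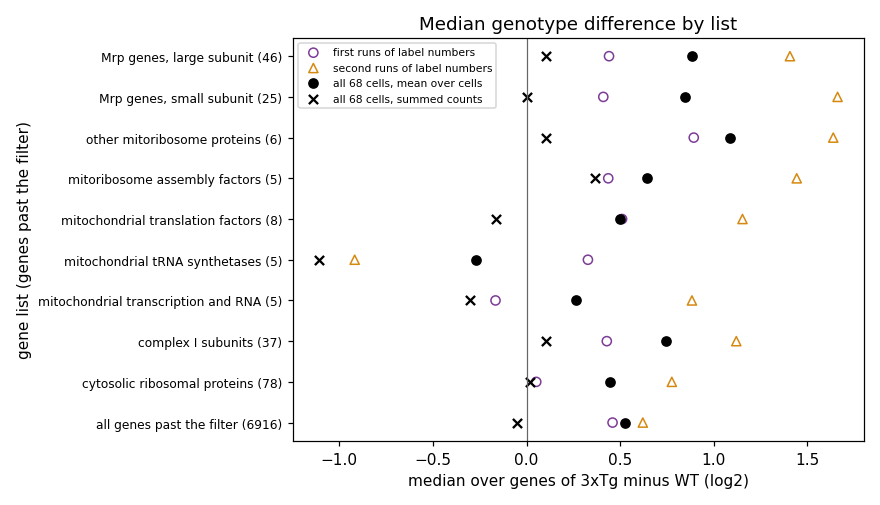
Each row is a gene list with its number of genes past the filter, and the horizontal axis is the median over its genes of 3xTg minus WT on the log2 scale. Black points are the mean over all cells, crosses the summed counts, open circles the first runs and open triangles the second runs. The Mrp rows have black points at 0.89 and 0.85 and crosses near 0, and their second runs lie at 1.41 and 1.66.

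The way the counts were made limits the single values. Of the 76 members, 74 had a count that was not whole in at least 1 cell, by more than 0.001. How such counts arose is not given in the sources used here. Mrpl35 had such counts in 63 cells. Values of members with near-identical copies or overlapping genes are uncertain. The gene bodies of 13 members overlap another gene. How the counting treated strand is not given in the sources used here. Fewer Mrp transcripts in a cell and less RNA drawn from it cannot be told apart.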

How the data were processed

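Polyadenylated RNA of 68 single neurons was captured on oligo-dT beads, copied and amplified over 28 PCR cycles (NEBNext low input), and both ends of fragments were read for 100 bases. The authors aligned the reads to mm10 RefSeq transcripts, removed duplicates, and deposited estimated counts per gene that need not be whole. The authors also deposited log2 values after DESeq2 normalization, which were used only as an alternative. The table had 0 columns of no sample.

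Totals were 492505 to 1678620 counts per cell, which limits precision for members at a few counts. Size factors by median of ratios used the 787 genes counted in every cell. Genes with a normalized count of at least 1 in 50% of cells were kept, and means were taken of log2(normalized count + 1), a scale that understates changes of low genes. For sums, counts were rounded to whole numbers, with exact Poisson 95% intervals, and Clopper-Pearson intervals were given for shares of cells. No test was made, because no label names an animal. The calculations were tested on simulated counts, drawn from 1 profile shared by all cells except for genes changed on purpose. No separate loss of genes from part of the cells was modelled, so the mean of logs was not tested in that setting. Python 3.11.15, numpy 2.4.6, pandas 2.3.3, scipy 1.17.1, R 4.3.3 and edgeR 4.0.16 (TMM factors) were used.

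Values are given for the 6 highest and 6 lowest members by difference and by level, members counted in every cell, those with a summed log2 ratio of at least 1 or at most -1, those named for another place than theirs, and the extremes of each other list, of which 1 is not reported here. Members and lists were chosen with earlier results of these data known. Alternatives covered scaling, pseudocount, filter, thinning, runs, marker-bearing cells, single cells left out and length. Protein sequences were not used here, so coding lengths came from GENCODE vM21 transcripts.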

Additional observations from a re-analysis of the deposited data

How the results depend on the processing

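The median member difference (0.88) and its value relative to the median gene (0.36) were 1.28 and 0.55 with a pseudocount of 0.1, 0.44 and 0.19 with 10, and 0.33 and 0.22 over cells with a count alone. Relative values were 0.49 with a filter of 80% of the cells of 1 genotype and 0.75 with none (members above 0 were 42 of 44 and 73 of 76, against 70.9% and 65.8% of all genes, and by sums 25 of 44 and 42 of 76, against 47.9% and 46.4%), and the median was 0.67 after thinning. In the first runs these were 0.44 and -0.019, the median of sums -0.051, the pooled ratio -0.040 and the difference in members counted per cell 2, and in the second runs 1.55, 0.93, 0.25 and 0.25. The median of sums was 0.16 with TMM, and the median level 50.9 CPM per kilobase of transcript. Leaving out each cell gave 0.81 to 0.98 for the median, 0.28 to 0.44 for the relative value, 67 to 69 members above 0 (72.4% and 73.96% of all genes), 0.015 to 0.109 for the median of sums, 37 to 45 members above 0 by sums (47.3% and 46.3% of all genes), 0.064 to 0.135 for the pooled ratio and 12.5 to 13 for members per cell. Of the 72 members, 69 were above 0 over all cells, 51 in the first runs, 71 in the second and 61 after thinning. The shares over all genes were 73.3%, 71.9%, 67.8% and 69.5%. Single signs are listed only for the 28 members named by rule, so other members turned too. Among these 28, signs turned in the first runs for Mrpl1 (-0.029), Mrpl42 (-0.26), Mrpl43 (-0.28), Mrps23 (-0.94), Mrps24 (-0.58) and Mrps30 (-0.88). They turned in the second for Mrpl35 (0.24), Mrps22 (-0.053), Mrps31 (0.16) and Mrps7 (0.56), and after thinning for Mrpl3 (-0.15), Mrpl43 (-0.24), Mrps23 (-0.21) and Mrps24 (-0.15). The cause was not tested. Of the alternatives for the summary values, 53 stayed within 0.1 (log2) or, for shares of members and for the number of members per cell, within 1.5 times, 18 moved further and 3 changed sign. No paired analysis was possible because the genotypes share no label numbers. The transcript length and the ratio without Mrps36 were chosen after seeing the data.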
